A study of Caenorhabditis elegans with 2 samples.

Results

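The binding of GEI-8 was mapped at 9 genes of propionate and branched-chain amino acid metabolism in Caenorhabditis elegans: the nuclear hormone receptor genes nhr-10, nhr-68 and nhr-114, the branched-chain aminotransferase gene bcat-1, and the enzyme genes acdh-1, ech-6, hach-1, hphd-1 and alh-8. They are 9 of the 19973 protein-coding genes of the nuclear genome. The genes were chosen by name after peaks at several of them had been seen in these same data, so counts of peaks at them are descriptions and no test was made of them. For each gene, every peak with its summit between 6000 bp upstream of the annotated 5′ end and the end of the gene was taken, and this window is called the locus. The strongest pooled peak by signal lay in the bcat-1 locus, where it ranked 3 in replicate 1 and 2 in replicate 2, and the peak ranked 18 lay upstream of nhr-68. Weaker peaks, still on the list of reproducible peaks, lay in acdh-1 and far upstream of hach-1, and the other 5 genes had no peak on that list. The peaks of the nhr-68 and hach-1 loci on that list lay nearer to the 5′ ends of other genes, H12C20.7 and F09F7.6.

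In vertebrates, the corepressors NCoR and SMRT, to which GEI-8 is related, bring histone deacetylases to nuclear receptors and other transcription factors. Chromatin immunoprecipitation with sequencing used an antibody to GFP, by the sample description (the antibody label itself names gei-8), in strain OP589, in which the unc-119(tm4063) mutation is combined with the integrated array wgIs589. This array carries gei-8::TY1::EGFP::3xFLAG with a rescuing unc-119(+) copy, and so the protein mapped was the tagged one, present beside any product of the endogenous gene. The animals were whole L4 larvae of mixed sex, 48 hours old and synchronised earlier as L1 larvae starved after bleaching. All samples belong to 1 group with 2 biological replicates, and both were called against the same control alignment, so the 2 peak lists are not fully independent. No untagged strain, gei-8 mutant, other stage or diet was analysed here, so there is no condition to compare. A whole animal averages all tissues, and a peak present in a few cells cannot be told apart from a weaker peak in many. The files hold no read counts, so the depth of each library is unknown.

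Propionate, made in the breakdown of valine, isoleucine, methionine and some fatty acids, is normally turned into succinyl-CoA by a pathway that needs vitamin B12. When vitamin B12 is low, worms switch on a second route, the propionate shunt, through the transcription factors NHR-10 and NHR-68. ACDH-1, ECH-6, HACH-1, HPHD-1 and ALH-8 carry out its steps in that order, and BCAT-1 removes the amino group of leucine, isoleucine and valine at the start of their breakdown.

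Peaks were ranked by the signal in the authors' lists. The pooled list and each replicate list hold 30000 peaks, most of them background, and the deposited list of peaks that passed the irreproducible discovery rate (IDR) threshold holds 1053, which are the 1053 strongest pooled peaks. Signals of different lists are compared here by rank alone, and the peaks the results turn on are given with their rank in both replicates. The sequences at 5 summits are printed first, since the bcat-1 and nhr-68 summits carry the strongest peaks and the alh-8 and nhr-114 summits lie just upstream of those genes.

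The windows of 300 bp round the summits were read from the ce11 (WBcel235) genome of RefSeq, and stretches annotated as UTR of a neighbouring gene were left off, which leaves 172 bases at nhr-68 and 293 at alh-8. All are on the plus strand, which is the coding strand of the 4 genes, and run 5′ to 3′. Capitals mark exact matches on either strand to a GATA site, an E-box or a GA repeat, which are spelled out after the sequences.
bcat-1 distal summit, chrX:12872325-12872624: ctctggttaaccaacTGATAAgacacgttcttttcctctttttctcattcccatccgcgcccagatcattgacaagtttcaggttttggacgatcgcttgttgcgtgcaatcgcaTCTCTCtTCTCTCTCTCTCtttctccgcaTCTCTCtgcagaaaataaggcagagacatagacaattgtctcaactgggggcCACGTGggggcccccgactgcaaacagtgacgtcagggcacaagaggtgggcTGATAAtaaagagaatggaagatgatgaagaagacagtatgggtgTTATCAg
bcat-1 proximal summit, chrX:12876851-12877150: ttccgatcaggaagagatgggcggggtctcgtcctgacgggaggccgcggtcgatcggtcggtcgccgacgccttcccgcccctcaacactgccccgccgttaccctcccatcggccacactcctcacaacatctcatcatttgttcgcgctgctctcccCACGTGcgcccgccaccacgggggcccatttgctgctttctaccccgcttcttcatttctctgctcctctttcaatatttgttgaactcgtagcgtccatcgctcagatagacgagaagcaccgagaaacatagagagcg
nhr-68 upstream summit, chrV:11572991-11573162: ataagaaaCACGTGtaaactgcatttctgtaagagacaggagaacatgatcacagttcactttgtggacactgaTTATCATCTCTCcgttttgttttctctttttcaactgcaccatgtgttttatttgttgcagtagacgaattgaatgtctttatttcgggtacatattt
alh-8 upstream summit, chrII:11728542-11728834: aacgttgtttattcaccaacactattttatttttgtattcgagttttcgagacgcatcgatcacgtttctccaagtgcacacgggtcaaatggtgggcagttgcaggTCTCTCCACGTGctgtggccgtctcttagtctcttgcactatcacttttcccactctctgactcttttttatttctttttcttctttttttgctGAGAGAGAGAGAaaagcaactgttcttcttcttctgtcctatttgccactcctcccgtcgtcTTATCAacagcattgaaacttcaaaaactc
nhr-114 upstream summit, chrV:4186343-4186642: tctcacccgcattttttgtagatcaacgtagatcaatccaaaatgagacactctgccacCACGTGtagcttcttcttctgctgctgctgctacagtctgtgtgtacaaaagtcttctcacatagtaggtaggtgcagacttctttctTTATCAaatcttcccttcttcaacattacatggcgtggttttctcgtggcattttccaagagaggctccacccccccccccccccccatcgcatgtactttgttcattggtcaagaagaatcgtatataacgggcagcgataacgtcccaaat

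The 5 motifs searched were TGATAA (the GATA site, bound by GATA factors, which drive intestinal genes), AGGTCA (the core site of many nuclear receptors), CACGTG (the E-box, bound by many helix-loop-helix factors), GAGAGA (a GA repeat) and TTCTAGAA (a heat shock element pair). Matches were exact and on both strands, overlapping matches were counted separately, and the palindromes CACGTG and TTCTAGAA were counted once. CACGTG stood in 6 of the 10 windows at the strongest peaks of the member loci (the 10 with a pooled rank of 2106 or better), among them 3 of the 5 on the IDR list. It was found in 17.4% of all 1053 IDR-list windows and in 5.82% of 19973 promoter windows of the same length (250 bases before to 50 after each annotated start). The first base of CACGTG lay 14 bp before the nhr-68 summit, 46 bp after the distal bcat-1 summit, 10 bp after the proximal bcat-1 summit and 30 bp before the alh-8 summit. At nhr-114 it lay 91 bp before the summit, and at the hach-1 peak 2025 bp upstream of the gene it lay 146 bp before. All the printed windows thus held CACGTG, while of the windows not printed only that hach-1 window did, so the printed ones do not represent all 10. The nhr-68 window held another CACGTG 150 bp before the summit, in a part not printed. A distance of 50 bp or less, a limit set after the positions were seen, was found in 94 of the 1053 IDR-list windows (8.93%).

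TGATAA stood in 5 of the 10 windows, among them 2 of the 5 on the IDR list, against 25.9% of IDR-list windows and 30.2% of promoter windows. The rest of the 10 windows rank below the IDR list, so the count over all 10 is not set against like peaks. The distal bcat-1 window held 3 copies of it, and it was also present at nhr-68, nhr-114, alh-8 and the hach-1 peak 2025 bp upstream. GAGAGA stood in 4 of the 10, among them 2 of the 5 on the IDR list, against 44.3% and 21.8%. It had 6 matches in the distal bcat-1 window and 5 in that of alh-8, of which 4 overlap each other in each window. AGGTCA was in none of the 10 (8.36% of IDR-list windows and 8.27% of promoters), and TTCTAGAA was in none (1.14% and 2.12%). The acdh-1 window, the IDR-listed hach-1 window and the bcat-1 window 3551 bp upstream matched none of the 5 motifs. The proximal bcat-1 window was 59.7% G and C and the distal one 48.0%, while the nhr-68 window was 36.7%, beside medians of 43.7% for IDR-list windows and 34.3% for promoters. A match describes the letters at a summit and does not show that a factor bound there.

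The member loci held 49 pooled peaks, 45 peaks of replicate 1 and 54 of replicate 2 over 74.8 kb. This is 6.56 pooled peaks per 10 kb, against 3.08 over the loci of all protein-coding genes. Some pooled peaks of the member loci overlap a neighbouring peak, so these are not counts of separate regions. The median locus of a member was 8.22 kb long and held 5 pooled peaks, while the median locus of all protein-coding genes was 8.03 kb long and held 2. All 9 members had some pooled peak, but so did 80.9% of all protein-coding genes, so presence in the long lists says little about a gene. The 49 peaks had a median pooled rank of 9100, beside 15000.5 for all pooled peaks. The genes were chosen with peaks known, so nothing is read from these differences, and 11 of the 49 peaks lay in the bcat-1 locus. Of the 49 summits, 24 lay more than 1000 bp upstream, 8 lay in the last 1000 bp before the gene and 17 lay inside it. By annotation, 18 were in coding exons, 13 were intergenic, 8 were in introns, 5 were in RNA genes and 5 were in 3′ UTRs, of the member or of a neighbour.

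**Figure D1:**
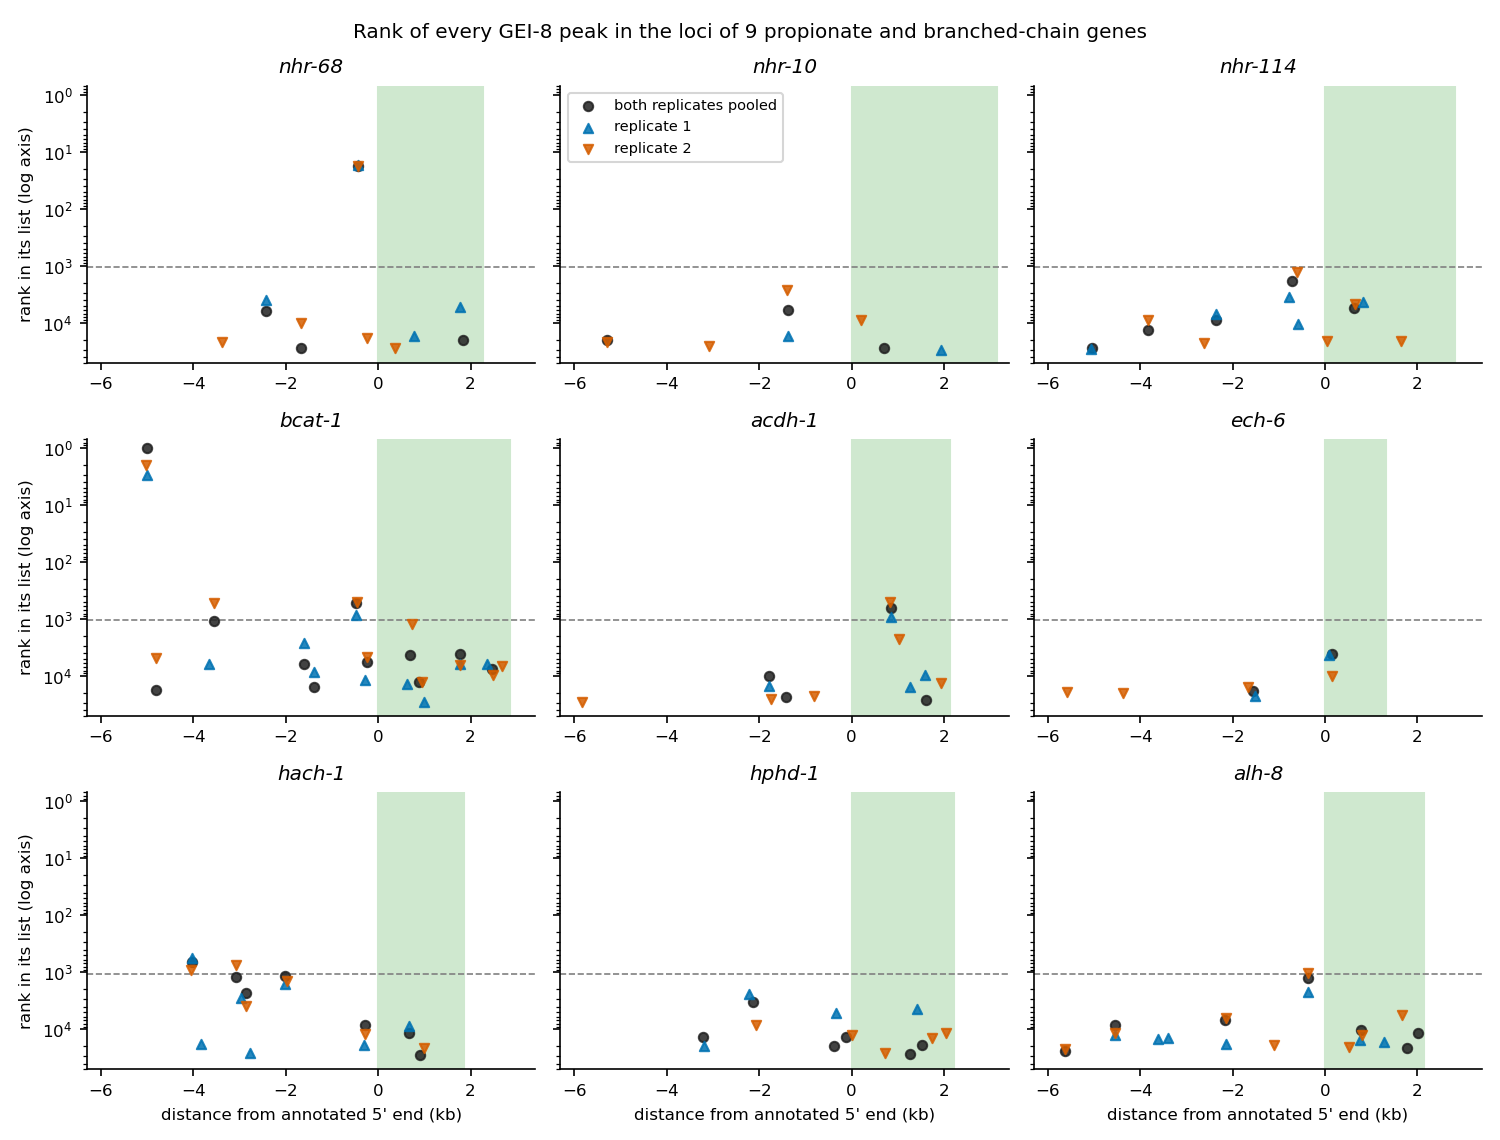
Rank of each peak (log axis, strongest at the top) against its distance from the annotated 5′ end of the gene in kb, for the pooled list and each replicate; green marks the gene and the dashed line rank 1053. The bcat-1 and nhr-68 panels hold the strongest peaks, at ranks 1 and 18 of the pooled list, and the nhr-10, nhr-114, ech-6 and hphd-1 panels have no peak above the line.

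IDR-list peaks numbered 5, in 4 of the 9 loci (bcat-1 with 2, and nhr-68, acdh-1 and hach-1 with 1 each), while 8.08% of all protein-coding genes have one in a locus so defined. In the promoter window, from 1000 bp upstream to 200 bp downstream of the 5′ end, nhr-68 and bcat-1 had an IDR-list summit, so 2 of 9, against 2.06% of all genes. Among the 2106 strongest pooled peaks, which is 2 times the length of the IDR list, 10 lay in the loci of 6 members, against 14.5% of all genes. With 2 IDR-list summits bcat-1 joins 1.23% of all genes. Both bcat-1 and nhr-68 had a summit among the 18 strongest pooled peaks, which 0.14% of all genes have. These counts reflect peaks already used to choose the genes, and nothing is read from their excess over the background.

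**Figure D2:**
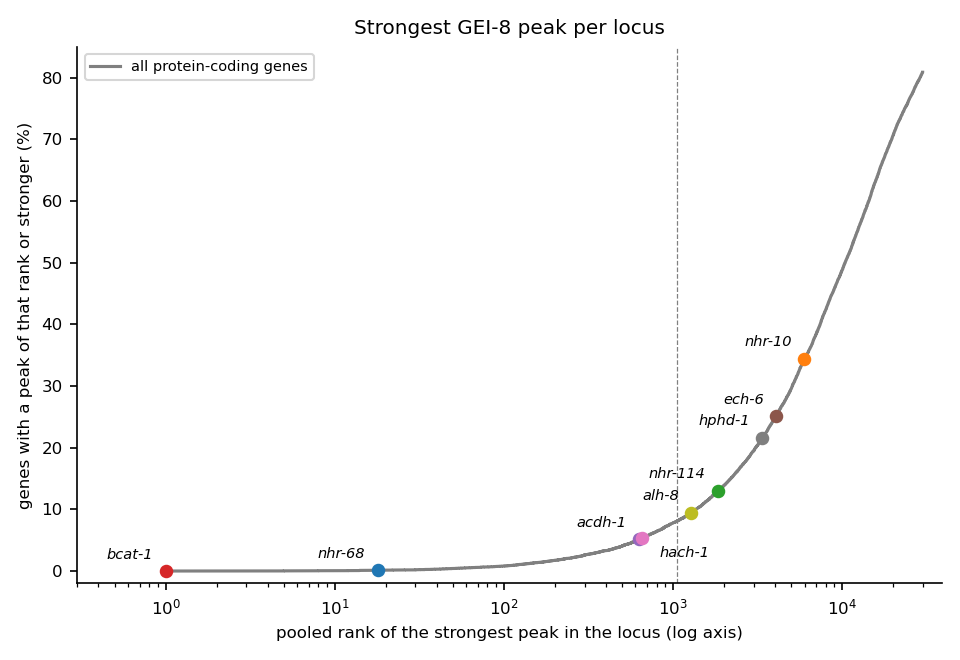
Percentage of all protein-coding genes whose strongest pooled peak reaches a given rank or better (grey line, log axis), with the 9 members marked on it and the dashed line at rank 1053. The members spread from rank 1 for bcat-1 to rank 5967 for nhr-10, which 34.4% of genes reach or better.

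Among the receptors, nhr-68 (WBGene00003658, chrV:11573440-11575709, plus strand) had the strongest peak, chrV:11572917-11573151, with its summit 427 bp upstream of the 5′ end. Its rank was 18 in the pooled list, 17 in replicate 1 and 18 in replicate 2, with signals of 446.0, 237.8 and 207.4, and the replicate summits lay 429 and 439 bp upstream. The replicates thus placed it alike in order and in position. The summit is intergenic and is closer to another gene: it lies 23 bp upstream of the 5′ end of H12C20.7, which runs on the opposite strand from 450 to 2750 bp upstream of nhr-68. The nuclear receptor gene nhr-101, on the same strand as nhr-68, ends 891 bp upstream. From these data the peak cannot be given to nhr-68 rather than to H12C20.7. The other 3 pooled peaks of the locus ranked 6304, 20103 and 27734.

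The strongest peak in the locus of nhr-114 (WBGene00003704, chrV:4187202-4190008, plus strand), a receptor linked to the methionine and S-adenosylmethionine side of vitamin B12 metabolism, was chrV:4186268-4186717, 709 bp upstream. It ranked 1841 in the pooled list, 3503 in replicate 1 and 1282 in replicate 2, and so was off the IDR list. The replicate summits were 185 bp apart, at 787 and 602 bp upstream, and their signals were 49.7 and 59.2. The summit lies in an intron of Y45G5AM.9, a gene on the opposite strand that spans the whole of nhr-114. Another peak, 636 bp inside nhr-114, ranked 5443.

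The nhr-10 locus (WBGene00003609, chrIII:7112295-7115438, minus strand) held 3 pooled peaks, the weakest set of the 9 by best rank. Its best, 1373 bp upstream and intergenic, ranked 5967 pooled, 16895 in replicate 1 and 2660 in replicate 2. A best rank of that size or stronger was found for 34.4% of all protein-coding genes, beside 13.0% for that of nhr-114 and 0.14% for that of nhr-68. So the loci of the 2 receptors known to switch on the shunt, nhr-10 and nhr-68, held the weakest and the strongest best peak of the 3 receptor loci. This order rests on the nhr-68 peak that lies nearer to H12C20.7. The other pooled peaks of the nhr-68 locus ranked 6304, 20103 and 27734.

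The aminotransferase gene bcat-1 (WBGene00001149, chrX:12877480-12880328, plus strand) had 11 pooled peaks, 12.4 per 10 kb, the highest density of the 9. Several of the 11 overlap a neighbouring peak, so they are not all separate regions. The distal peak, chrX:12872317-12872631, had its summit 5005 bp upstream and ranked 1 pooled, 3 in replicate 1 and 2 in replicate 2, with signals of 623.4, 322.1 and 309.6. The replicate summits lay 5000 and 5017 bp upstream. The summit is intergenic and lies 295 bp downstream of the 5′ end of the noncoding RNA gene T14G8.5, past the end of that gene. The nearest other protein-coding gene, T14G8.4, has its 5′ end 8579 bp away, so bcat-1 is the nearest protein-coding gene by 5′ end.

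Nearer to bcat-1, the peak chrX:12876776-12877225 had its summit 479 bp upstream and ranked 531 pooled, 836 in replicate 1 and 501 in replicate 2. Its signals were 76.1 in replicate 1 and 81.8 in replicate 2, and the replicate summits lay 485 and 457 bp upstream. The summit is inside the noncoding RNA gene K02A4.14 and 10 bp upstream of the 5′ end of another, K02A4.3, on the opposite strand. In all, 10 noncoding RNA genes start in the bcat-1 locus, and none in the other 8 loci. Noncoding RNA genes lie near many peaks of the experiment: 28.9% of IDR-list summits have the 5′ end of one within 500 bp, and 21.0% lie in an RNA gene or pseudogene.

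Between them, a peak 3551 bp upstream of bcat-1 ranked 1078 in the pooled list and was the first member peak outside the IDR list. It ranked 6175 in replicate 1, with a signal of 42.4, and 513 in replicate 2, with a signal of 81.0, so it was strong in replicate 2 alone. The last member peak inside the list, that of hach-1 at rank 659, ranked 567 and 930. Inside bcat-1, a peak at 692 bp, within the noncoding RNA gene K02A4.8, also differed: it ranked 4216 pooled, 13637 in replicate 1 and 1224 in replicate 2. A peak at 1768 bp, in coding exon 5, ranked 4109 pooled, 6129 in replicate 1 and 6373 in replicate 2.

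**Figure D3:**
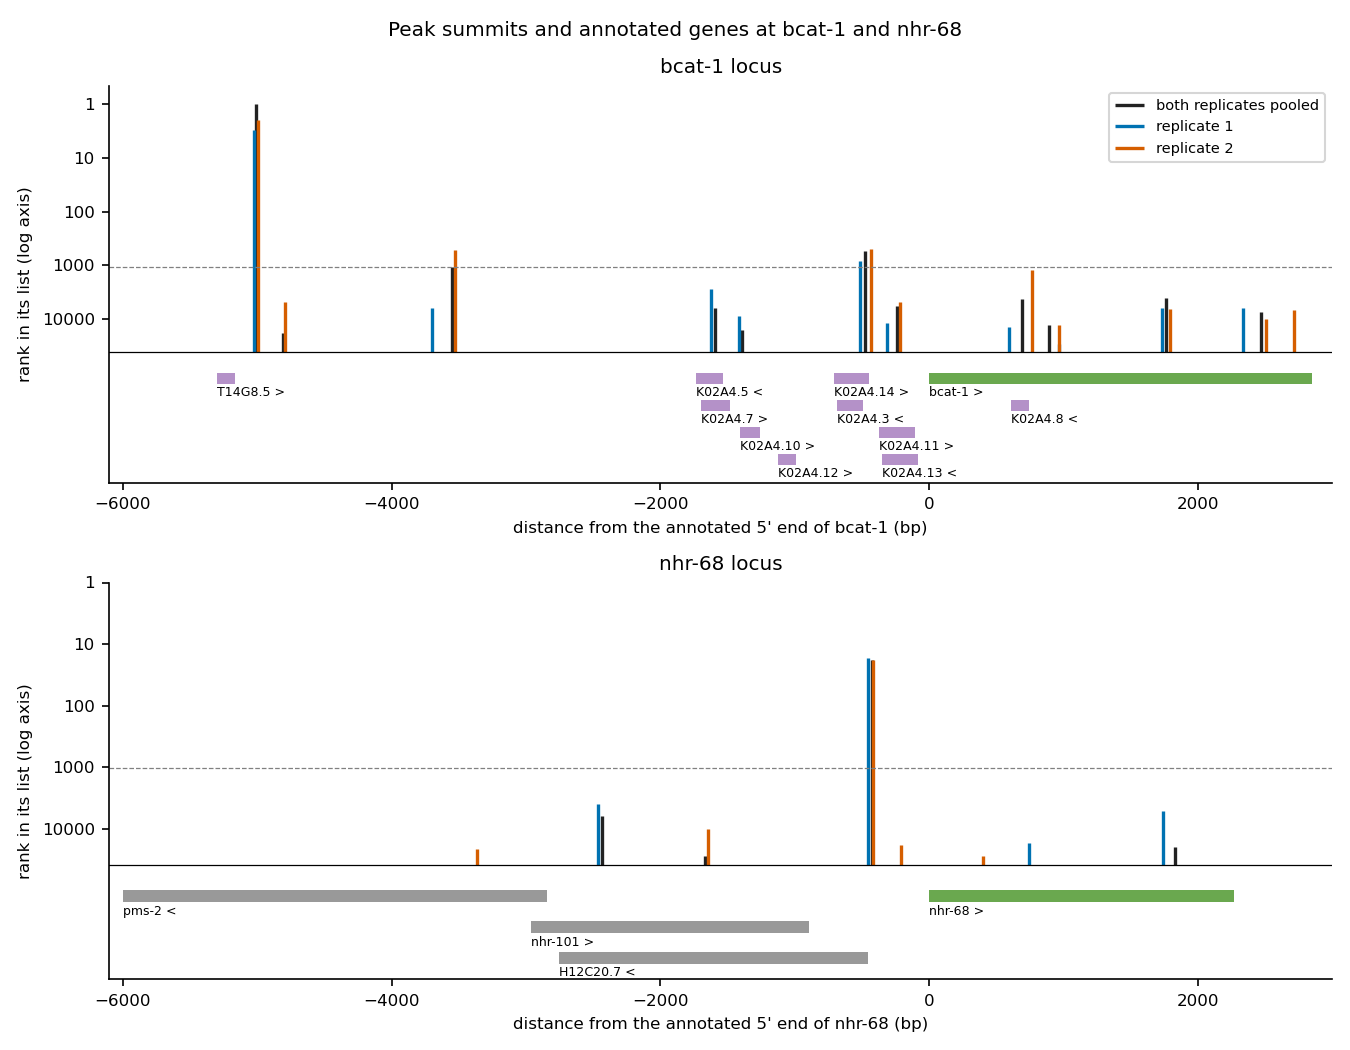
Summits by distance in bp from the annotated 5′ end of bcat-1 (top) and nhr-68 (bottom), with bar height showing rank on a log axis (replicate bars are shifted slightly to keep them apart) and annotated genes below, noncoding RNA genes in purple, other protein-coding genes in grey and the direction of each by an arrowhead. The distal bcat-1 peak stands 5005 bp upstream near T14G8.5, and the nhr-68 peak stands at the 5′ end of H12C20.7.

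Within one list, signals can be set against each other. On the log2 scale the distal bcat-1 signal exceeded that of nhr-68 by 0.44 in replicate 1 and 0.58 in replicate 2, a mean difference of 0.51 ± 0.1 (SD, n = 2) or 1.42-fold. It exceeded the proximal bcat-1 peak by 2.0 ± 0.11 (SD, n = 2), that of acdh-1 by 2.02 ± 0.15 (SD, n = 2) and that of hach-1 by 2.05 ± 0.24 (SD, n = 2), all about 4-fold. The reference here was the peak of rank 1 in the pooled list. That it was the higher in both replicates follows from that choice, so these differences give sizes alone. The last 3 peaks differed from each other by less than the spread between replicates, and their order was not the same in the 2 replicates.

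Of the shunt enzymes, acdh-1 (WBGene00016943, chrI:6497436-6499560, plus strand), the acyl-CoA dehydrogenase of the first step and a common reporter of vitamin B12 status, had 1 IDR-list peak, chrI:6498069-6498518. Its summit lay 858 bp inside the gene in a coding exon, which is exon 3 of the longest transcript and exon 1 of shorter ones, and was 209 bp downstream of the nearest annotated transcript start. It ranked 630 pooled, 910 in replicate 1 and 503 in replicate 2, with signals of 73.8 and 81.8 in the replicates and summits 858 and 826 bp inside. A summit in a coding exon was uncommon, at 8.17% of the IDR list. No peak within 1000 bp upstream of the acdh-1 5′ end was on the pooled list, and the 2 upstream peaks, at 1417 and 1778 bp and in the neighbouring gene uri-1, ranked 23406 and 10030.

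In the locus of ech-6 (WBGene00001155, chrIII:9751552-9752883, minus strand), the enoyl-CoA hydratase gene, 2 pooled peaks were found. The better one lay 143 bp inside the gene, in coding exon 1, and ranked 4080 pooled, 4307 in replicate 1 and 10094 in replicate 2. A best rank at least that strong was found for 25.1% of all genes.

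The locus of hach-1 (WBGene00017301, chrIII:5555450-5557318, plus strand), which encodes the hydroxyacyl-CoA hydrolase, had 7 pooled peaks, 3 of them among the strongest 2106 and all 3 far upstream. The one on the IDR list, chrIII:5551204-5551653, had its summit 4021 bp upstream and ranked 659 pooled, 567 in replicate 1 and 930 in replicate 2, with replicate signals of 87.4 and 66.1. That summit is in a coding exon of F09F7.6, 706 bp inside this gene of the opposite strand. The peak 3067 bp upstream ranked 1229 pooled, 2876 in replicate 1 and 749 in replicate 2, and lies 248 bp upstream of the 5′ end of F09F7.6. The peak 2025 bp upstream ranked 1150 pooled, 1607 in replicate 1 and 1424 in replicate 2. By annotated 5′ end, F09F7.6 is the nearest protein-coding gene to all 3. The gene nmad-1, on the opposite strand, spans from 1961 to 516 bp upstream of hach-1, so its 3′ end is close to the last of these summits. The peak closest to the hach-1 5′ end, 287 bp upstream, ranked 8498.

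The hydroxypropionate dehydrogenase gene hphd-1 (WBGene00012608, chrII:12994354-12996571, minus strand) had 6 pooled peaks. The best, 2132 bp upstream in an intron of Y38F1A.8, ranked 3380 pooled, 2443 in replicate 1 and 8422 in replicate 2, and the 5′ end of Y38F1A.7 is nearer to it. The peak closest to the 5′ end of hphd-1, 119 bp upstream, ranked 13544.

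The semialdehyde dehydrogenase gene alh-8 (WBGene00000114, chrII:11729055-11731198, plus strand) had 7 pooled peaks, of which the best, chrII:11728460-11728909, lay 370 bp upstream in intergenic sequence. It ranked 1287 pooled, 2261 in replicate 1 and 1048 in replicate 2, with replicate signals of 55.7 and 63.7 and summits 376 and 369 bp upstream, 7 bp apart. It would be on a list of the same length from replicate 2 but not from replicate 1. For alh-8 no other protein-coding 5′ end is nearer to the peak.

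**Figure D4:**
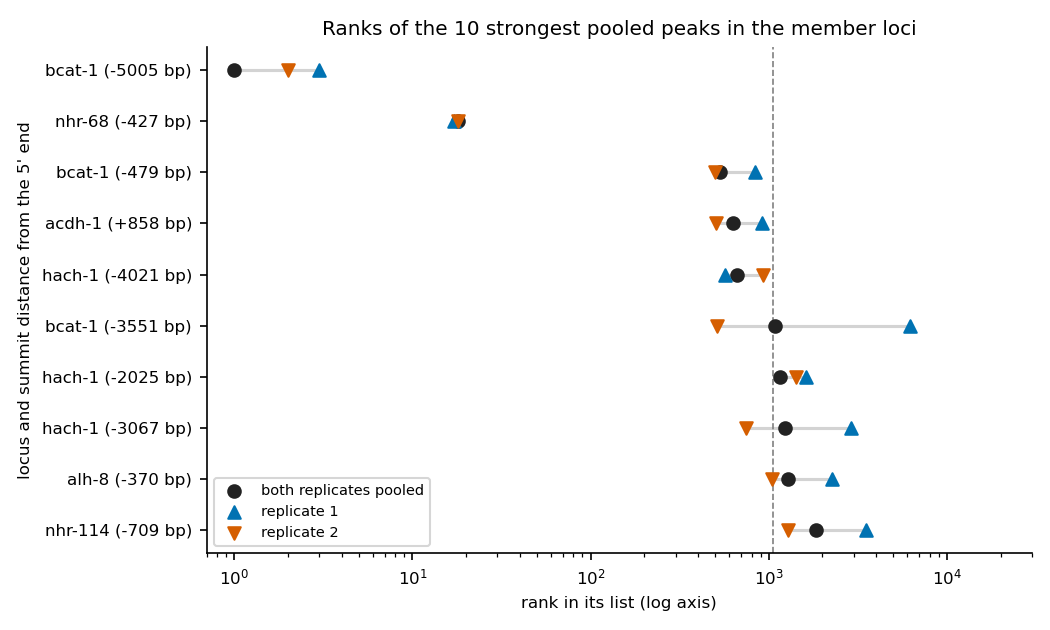
Rank (log axis) of the 10 strongest pooled peaks in the member loci in the pooled list and in each replicate, with the locus and the distance of the summit from the 5′ end at the left and the dashed line at rank 1053. The nhr-68 and distal bcat-1 peaks hold ranks 18 or better in all 3 lists, while the bcat-1 peak at −3551 bp spans ranks 513 to 6175.

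All 5 IDR-list peaks of the members ranked within the 1053 strongest of both replicates, which held for 650 of the 1053 IDR-list peaks (61.7%). The 5 have pooled ranks of 659 or better, while that share covers the list down to rank 1053. The genes were also chosen with peaks known, so nothing is read from this difference. Many peaks of this experiment lie at small RNA genes: 26.9% of IDR-list summits are within 1000 bp of the 5′ end of a tRNA or snoRNA gene. None of the 5 at the members is, but 5 peaks are too few to show a difference from that share. By nearest annotated 5′ end of a protein-coding gene, 3 of the 5 lie nearest to the member itself (2 at bcat-1 and 1 at acdh-1), and those of nhr-68 and hach-1 lie nearer to H12C20.7 and F09F7.6.

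Neighbouring pathways were described from 4 lists. Of 7 genes of the vitamin B12-dependent propionate pathway, 1 had an IDR-list summit in its locus, cblc-1, which handles vitamin B12 inside the cell. The peak ranked 449 pooled, 308 in replicate 1 and 885 in replicate 2, was 1407 bp upstream in an intron of another gene, and had a tRNA or snoRNA gene within 1000 bp. Of 22 genes of branched-chain amino acid breakdown, 1 had one, ech-1.2, which encodes an enoyl-CoA hydratase, with a peak 1731 bp upstream that ranked 501 pooled, 635 in replicate 1 and 409 in replicate 2. That peak also had a tRNA or snoRNA gene within 1000 bp, and mrpl-23 was nearer.

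Of 15 genes of the methionine and S-adenosylmethionine cycle, 2 had IDR-list summits. At ahcy-1, the adenosylhomocysteinase gene, they lay 740 bp upstream and 394 bp inside, with pooled ranks of 747 and 761, ranks in replicate 1 of 448 and 459, and ranks in replicate 2 of 1434 and 1077. At mtrr-1, the methionine synthase reductase gene, they lay 2998 and 4085 bp upstream, ranked 731 and 996 pooled, and were nearer to gldi-3. The first ranked 544 in replicate 1 and 1918 in replicate 2, and the second 1545 and 1006, so each fell outside the strongest 1053 of one replicate. Of 15 other regulators of intestinal metabolism, 2 had one. At hlh-11, a helix-loop-helix factor gene, the stronger summit lay 312 bp upstream and ranked 120 pooled, 106 in replicate 1 and 158 in replicate 2. At the nuclear receptor gene nhr-48 the stronger lay 1943 bp upstream and ranked 422 pooled, 432 in replicate 1 and 490 in replicate 2.

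The shares of the 4 lists with an IDR-list summit were 14.3%, 4.55%, 13.3% and 13.3%, beside the 8.08% of all genes, and their median best pooled ranks were 4201, 7614.5, 2342 and 3220. The median best rank was 1287 for the members and 7510 for all genes with a pooled peak. In the branched-chain list 20 of 22 genes had a pooled peak, and those without one were counted as the weakest. Its median is thus not on the same footing as 7510, which leaves out genes without a peak. Among the strongest 2106 pooled peaks, 3, 3, 7 and 6 genes of the lists had a summit, where 14.5% of all genes have one. Beside cblc-1 these were pccb-1 and mmaa-1 of the propionate list, and beside ech-1.2 they were ech-2 and hacd-1 of the branched-chain list. Beside ahcy-1 and mtrr-1 they were mthf-1, pmt-1, cth-2, pmt-2 and sams-1, and beside hlh-11 and nhr-48 they were nhr-49, nhr-66, mdt-15 and nhr-85. These further genes were named after their values were seen. The lists hold from 7 to 22 genes, so 1 gene more or less moves a share by several percentage points.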

How the data were processed

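GEI-8 chromatin immunoprecipitation with sequencing was done on 2 replicates of 1 group, and chromatin was sonicated, per the labels. The deposited files are peak lists in assembly ce11, each called by the authors against 1 control alignment. They hold a signal per peak (column 7), a −log10 q-value that the authors' caller gave, used for an alternative ranking alone, and the peak offset, another value the authors deposited, which gives the summit. Which aligner and caller were used is not given in the sources used here, and the files state no read depth. Summits were joined to the Ensembl annotation, release 115, of WBcel235 (ce11), and coordinates are 1-based. A pooled peak was matched to the strongest replicate peak that overlaps it by at least 1 bp. Many worm transcripts are trans-spliced, so an annotated 5′ end can lie downstream of the true start.

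The members, the 4 lists and all rules were chosen with earlier results of these data known. The genes named are all 9 members, up to 3 genes a list with the strongest IDR-list summit, and the nearest gene at each listed member summit; list genes with a peak only among the strongest 2106, and neighbours of weaker peaks, were named after their values were seen. The annotation lacks 1 of the 60 listed genes under its listed name, so no count given out of the 60 could include that gene. The counting was checked on simulated peaks. Python 3.11.15 was used with numpy 2.4.6, pandas 2.3.3 and matplotlib 3.10.9. Alternatives changed the number of peaks, the replicate used, the gene window, the assignment of peaks to genes, the ranking and the sequence window.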

Additional observations from a re-analysis of the deposited data

How the results depend on the processing

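With the stronger 50% of the IDR list, 2 members had a locus summit in place of 4, beside 861 of all genes in place of 1613 (4.31%), and 1 had a promoter summit in place of 2 (1.07% of all genes). With 2 times as many peaks, 6 members and 2889 of all genes (14.5%) had a locus summit. In the promoter window, 4 members then had a summit (3.58% of all genes). Of the 60 listed genes, 19 then had a locus summit in place of 6. When a peak counted only for the nearest gene by 5′ end, 2 members (bcat-1 and acdh-1) had a locus summit. So did 736 of all genes (3.68%) and 3 of the 60 listed genes. In the promoter window, 1 member (bcat-1) had a summit (1.68% of all genes). By construction this assignment removes nhr-68 and hach-1. From the strongest 1053 peaks of replicate 1 alone, 4 members and 1610 of all genes (8.06%) had a locus summit. In the promoter window, 2 members had one (1.85% of all genes). From those of replicate 2 alone, 5 members and 1627 of all genes (8.15%) had a locus summit. In the promoter window, 3 members had one (2.17% of all genes). Of the 60 listed genes, 8 had a locus summit in replicate 1 and 9 in replicate 2. Replicate 2 alone added alh-8. The median of the 5 member ranks (668.5 as the mean of both replicates) was 501 to 567 from a single replicate and 561 ranked by q-value. Without the peaks that have a tRNA or snoRNA gene inside 1000 bp, the propionate and branched-chain lists each lost their 1 gene. The share of a list moved across that of all genes in some settings: with any overlap of the whole peak the branched-chain list had 2 genes in place of 1, and with the stronger 50% the methionine list had 0 in place of 2. By q-value the nhr-68 and distal bcat-1 peaks tied at rank 1 in each replicate, a tie at the lowest value that other peaks can share. In the pooled list all 5 IDR-list member peaks, of signal ranks 1 to 659, had the same q-value, which did not separate them. With windows of 200 bp, an alternative chosen after seeing the data, CACGTG stood in 5 of the 10 windows in place of 6.

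No paired analysis was possible because all samples belong to 1 group. With 2 replicates, no spread over animals beyond these libraries is measured, and with depth unknown, a missing peak does not show that GEI-8 is absent. Where a peak lies between genes, nearness does not show which gene it acts on.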
